A study of Mus musculus with 16 samples.

Results

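The immunoglobulin heavy chain genes measured here were all non-control genes of the arrays whose description contained "immunoglobulin heavy" and did not contain "binding". The rule found 111 of the 36711 genes tested, measured by 118 probes, and all 111 passed the filter on dim probes. They comprised 98 variable (V) segments of 16 families, 12 entries for the constant regions of 8 isotypes, and 1 gene outside the locus, 1700018A04Rik, whose description names a human heavy chain clone and whose probe lies on chromosome 13. The 110 others form the heavy chain locus on chromosome 12.

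A heavy chain gene is assembled in each B cell from a V, a D and a J segment, so that a V transcript reports which segment a cell has rearranged, and the constant region next to it sets the isotype. Naive B cells use the μ and δ constant regions, encoded by Ighm and Ighd, and switch to γ, α or ε after activation. Plasma cells of the gut mucosa make mostly IgA, which is joined by the J chain (Jchain) and carried across the epithelium by the polymeric Ig receptor (Pigr). Antibody that pups receive in milk is protein and adds no heavy chain RNA to their tissue.

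Colon RNA of 16 RjOrl:SWISS pups weaned at 3 weeks was measured with 1-colour Agilent arrays, 1 for each pup. The 8 C-section delivery (CSD) pups were taken by hysterectomy and fostered by mothers that had just delivered vaginally. They came from mothers 3 and 4, with 2 females and 2 males from each. The 8 vaginal delivery (VD) pups were exchanged between mothers after birth, and comprised 2 females and 3 males of mother 5 and 3 males of mother 6. These mice are an outbred stock, whose litters can carry different alleles of the V segments, and no mother had pups of both kinds, so that delivery mode and litter cannot be told apart except through the 2 litters of each mode. Each of the 2 slides held 4 CSD and 4 VD pups. Between 61.6% and 64.5% of the non-control spots were well above background in CSD pups, against 58.7% to 64.9% in VD pups, and no spot was saturated. The colon markers Muc2, Car1, Krt20 and Cdx2 were well above background on all 16 arrays, as was Fabp6, an ileal gene (log2 9.38 to 10.95), while lactase (Lct), a small intestinal gene, was so on 0.

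The probes that carried the differences described in the following paragraphs are shown here, since V segments of a family are close copies and a probe may read more than 1 of them. Each has 60 bases and is given as the scanner output writes it, with its position on the minus strand of the mm9 build. Capitals mark the longest run of bases that it has in common with the probe of any other heavy chain gene. The first 8 belong to V segments that were lower in CSD pups, the next 2 to constant regions that were lower, and the last 2, for comparison, to Igha and to Ighv7-3, which did not pass the test.
Ighv14-1 (chr12:115170238-115170297): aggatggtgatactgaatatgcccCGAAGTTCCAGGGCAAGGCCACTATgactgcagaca
Ighv14-4 (chr12:115414722-115414781): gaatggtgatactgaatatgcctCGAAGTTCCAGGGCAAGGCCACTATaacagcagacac
Ighv14-2 (chr12:115232794-115232853): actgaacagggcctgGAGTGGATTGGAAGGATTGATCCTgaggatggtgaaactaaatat
Ighv14-3 (chr12:115298056-115298115): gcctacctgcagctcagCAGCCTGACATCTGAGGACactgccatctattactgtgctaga
Ighv9-1 (chr12:115332242-115332301): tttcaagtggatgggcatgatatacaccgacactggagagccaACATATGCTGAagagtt
Ighv9-2 (chr12:115347272-115347331): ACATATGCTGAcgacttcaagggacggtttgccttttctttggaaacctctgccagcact
Ighv9-3 (chr12:115379078-115379137): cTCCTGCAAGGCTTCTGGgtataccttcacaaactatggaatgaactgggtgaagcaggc
Ighv5-15 (chr12:115064989-115065048): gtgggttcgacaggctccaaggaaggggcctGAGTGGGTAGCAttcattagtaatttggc
Ighg2b (chr12:114544738-114544797): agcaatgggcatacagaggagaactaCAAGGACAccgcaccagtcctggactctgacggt
Ighg1 (chr12:114568594-114568653): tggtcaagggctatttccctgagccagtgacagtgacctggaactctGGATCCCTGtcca
Igha (chr12:114496985-114497044): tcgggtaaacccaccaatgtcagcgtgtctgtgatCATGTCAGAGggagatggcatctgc
Ighv7-3 (chr12:115391424-115391483): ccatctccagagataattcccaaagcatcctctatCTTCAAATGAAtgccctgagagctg
The probes of Ighv14-1 and Ighv14-4 were identical at 55 of 59 aligned bases and share a run of 25 bases, so that their values are not independent readings. No other pair of Ighv14 probes exceeded 47.4% identity or a shared run of 10 bases, but some were close to probes of Ighv1, a family without a call. Ighv14-3 was identical to Ighv1-7 at 29 of 32 aligned bases, Ighv14-2 to Ighv1-77 at 35 of 43 and Ighv9-3 to Ighv1-85 at 40 of 48, and cross-hybridization between them was not tested. Among the Ighv9 probes the closest pair, Ighv9-1 and Ighv9-4, were identical at 24 of 30 bases. Over all 102 probes of V segments the longest shared run had a median of 21.5 bases (range 8 to 45), and for 74 of them it lay in a probe of the same family. The runs of the probes of the constant regions Ighg1, Ighg2b and Igha had 8 to 10 bases.

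Of the 111 heavy chain genes, 10 were called between the colon of CSD and of VD pups (limma, delivery mode and sex fixed, mother random, Benjamini-Hochberg adjusted p under 0.05 over all genes), against 1.25% of all genes tested, and 101 were not. The count was 5 with a normexp offset of 16 or with the deposited matrix, 4 without VD pup 4, and 4 to 38 without 1 litter. All 10 were lower in CSD pups (0.548% of all genes), and 0 were higher (0.706% of all genes). The fitted difference was negative in 100 of the 110 genes of the locus (48.3% of all genes), and 43 were at least 2-fold lower (0.324% of all genes). At an unadjusted p under 0.05, 73 were lower (7.09% of all genes) and 1 was higher (7.37%). These 74 became 24 without mother 5 (12.05% of all genes in either direction, against 14.46%), 27 in males (8.98%), 32 on slide 1 (7.94%) and 42 without mother 3 (15.26%). The median difference was -0.92 on the log2 scale over the 111 genes, -0.93 over V segments and -0.80 over constant regions, against 0.0029 over all genes, and the first of these was -0.48 without mother 5 and -0.53 in males. In whole tissue, fewer B lineage cells and less heavy chain RNA per cell cannot be told apart. The mean of both CSD litters lay below that of both VD litters in 82 genes of the locus, a pattern seen in 20.3% of all genes, and above it in 3 genes, against 21.7% of all genes. With the 4 litter means as samples, 0 of the 111 genes and 0 of all genes were called, and 78 of the 111 had an unadjusted p under 0.05, as did 10.99% of all genes. Within slide 1 alone 3 heavy chain genes were called (0.0300% of all genes), of which Ighv14-1 and Ighv14-2 were among the 10 and Ighv1-12 was not, and the median was -0.70. Within slide 2 alone 0 were called, as were 0 of all genes, and the median was -1.01. In simulated data with independent noise for each gene and pup and no litter effect, the estimated litter correlation let through more false calls than the adjusted p states. How far this carries over to these arrays was not tested, and calls with an adjusted p near the threshold remain uncertain.

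**Figure D1:**
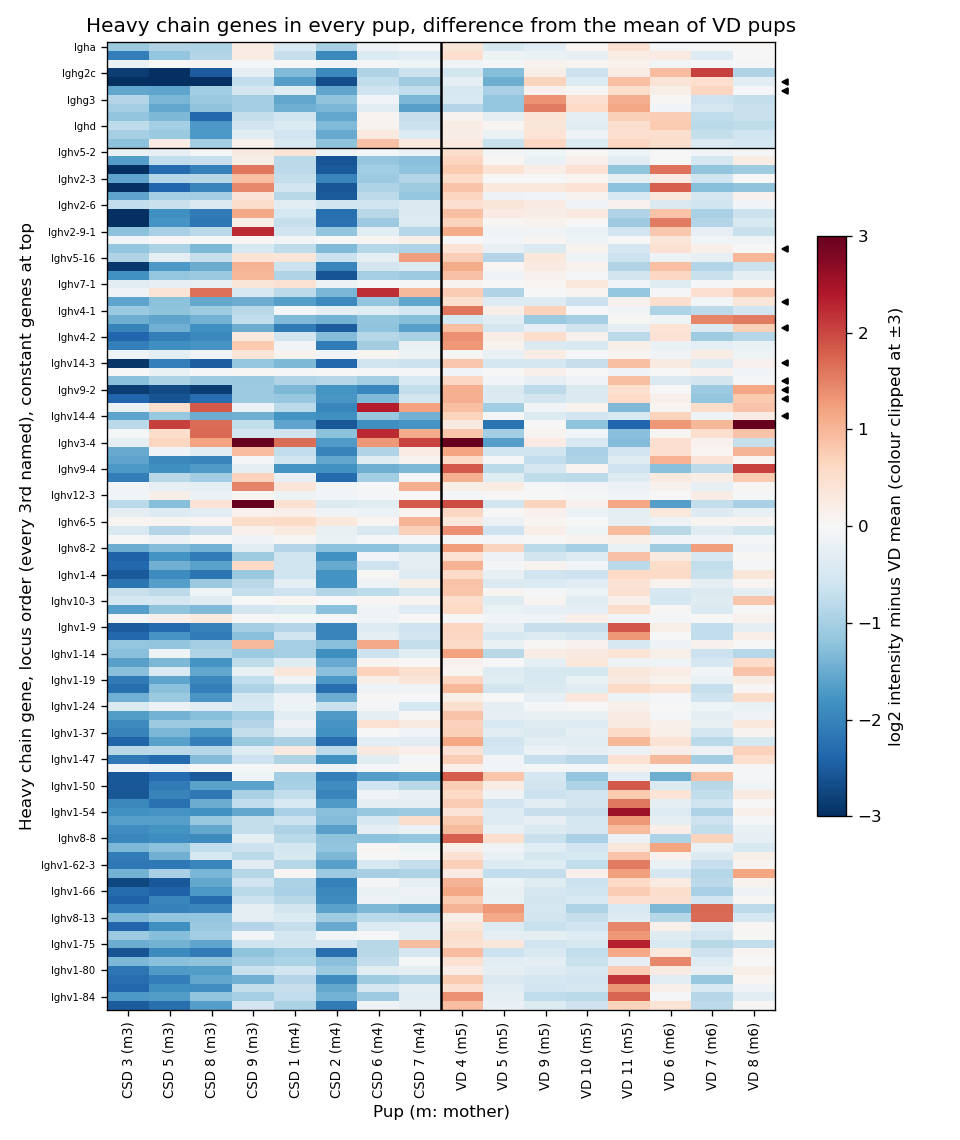
Heat map of the 110 heavy chain genes of the locus (y axis, in locus order, constant regions above the horizontal line) in each pup (x axis, with its mother), as log2 intensity minus the mean of the VD pups. Triangles on the right mark the 10 genes called. Blue dominates in CSD pups 3, 5 and 8 of mother 3 and pup 2 of mother 4, and the band of Ighv14 and Ighv9 genes is blue in all 8 CSD pups.

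In the Ighv14 family all 4 segments on the array were called lower in CSD pups. Ighv14-1 was measured at 6.15 to 6.88 in CSD pups with a median of 6.50 (5 of 8 arrays well above background), and between 7.41 and 8.56 among VD pups with a median of 8.08. Every CSD pup lay below every VD pup, as for Ighv14-2 and Ighv14-4, and as in 0.2% of all genes. The difference was -1.51 ± 0.18 (SE, 2.84-fold lower, n = 8 per group, limma adjusted p = 0.0013). The exact two-sided permutation p of 0.000155 was the smallest that 8 against 8 pups allow, in a test that treats littermates as independent and ignores sex. Ighv14-4, whose probe nearly coincides with that of Ighv14-1, ranged from 6.18 to 6.89 in CSD pups (6 of 8 arrays well above background) and from 7.46 to 8.71 in VD pups, with a difference of -1.50 ± 0.20 (limma adjusted p = 0.00254). Ighv14-2, whose probe has a run of 24 bases in common with that of Ighv1-62-3 and of 10 with that of Ighv14-1, ranged from 6.36 to 7.66 in CSD pups (median 7.13) and from 8.27 to 9.77 in VD pups (median 8.60). Its difference was -1.74 ± 0.26 (3.34-fold lower, limma adjusted p = 0.00571).

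Ighv14-3 had the brightest Ighv14 probe and was measured at 8.32 to 10.64 in CSD pups (median 9.53) and 10.54 to 12.14 in VD pups (median 11.10). The groups met at their edges, where CSD pups 6 and 7 reached the lowest VD pups, while the other 6 CSD pups lay below all VD pups. The difference was -1.58 ± 0.36 (limma adjusted p = 0.0470). Over 38 alternative settings, which included leaving out each pup and litter, Ighv14-1 and Ighv14-2 passed the test in 35, Ighv14-4 in 34 and Ighv14-3 in 13, and all 4 kept their direction in every one. The size of the difference ran from -2.92 to -1.22 for Ighv14-1, from -2.90 to -1.27 for Ighv14-4, from -2.50 to -1.40 for Ighv14-2 and from -2.12 to -1.15 for Ighv14-3, and for all but Ighv14-3 it was greatest with the scanner-corrected intensity.

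The Ighv9 family had 3 of its 4 segments called. Ighv9-2 was measured at 6.15 to 8.26 in CSD pups (median 7.12, 5 of 8 arrays well above background) and at 7.91 to 10.15 in VD pups (median 8.78), a difference of -1.88 ± 0.42 (3.69-fold lower, limma adjusted p = 0.0397). Pups 3, 5 and 8 of mother 3 were the lowest, and CSD pup 7 the only CSD pup to reach into the range of VD pups. For Ighv9-3 the ranges were 6.33 to 8.36 and 7.76 to 9.98, with a difference of -1.59 ± 0.37 (limma adjusted p = 0.0493). Ighv9-1 was dim, at 5.90 to 6.68 in CSD pups and at 6.59 to 8.04 in VD pups, and exceeded background clearly on 1 of 8 CSD arrays and on all 8 VD arrays. Its difference was -0.98 ± 0.20 (limma adjusted p = 0.0262). The calls of Ighv9-1, Ighv9-2 and Ighv9-3 held in 28, 14 and 9 of the 38 alternatives. Their differences ran from -3.25 to -0.57, from -3.02 to -1.24 and from -2.25 to -0.91, each greatest with the scanner-corrected intensity. Ighv9-4, the member that was not called, had a difference of -1.48 ± 0.49 (limma adjusted p = 0.151).

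The last V segment called was Ighv5-15, of a family of 8 on the array. It was measured at 6.17 to 7.06 in CSD pups (median 6.59, 5 of 8 arrays well above background) and 7.02 to 7.98 in VD pups (median 7.59), and 7 of the 8 CSD pups lay below all VD pups. The difference was -0.97 ± 0.17 (1.97-fold lower, limma adjusted p = 0.0123), and the call held in 33 of the 38 alternatives, over which the difference ran from -2.06 to -0.86. Of the other 7 Ighv5 segments, 5 had differences of -1.31 to -0.96 with errors of 0.48 to 0.67, as in Ighv5-12-4 (-1.30 ± 0.48, limma adjusted p = 0.200), and Ighv5-2 and Ighv5-16 had differences of -0.05 ± 0.11 and -0.01 ± 0.34.

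**Figure D2:**
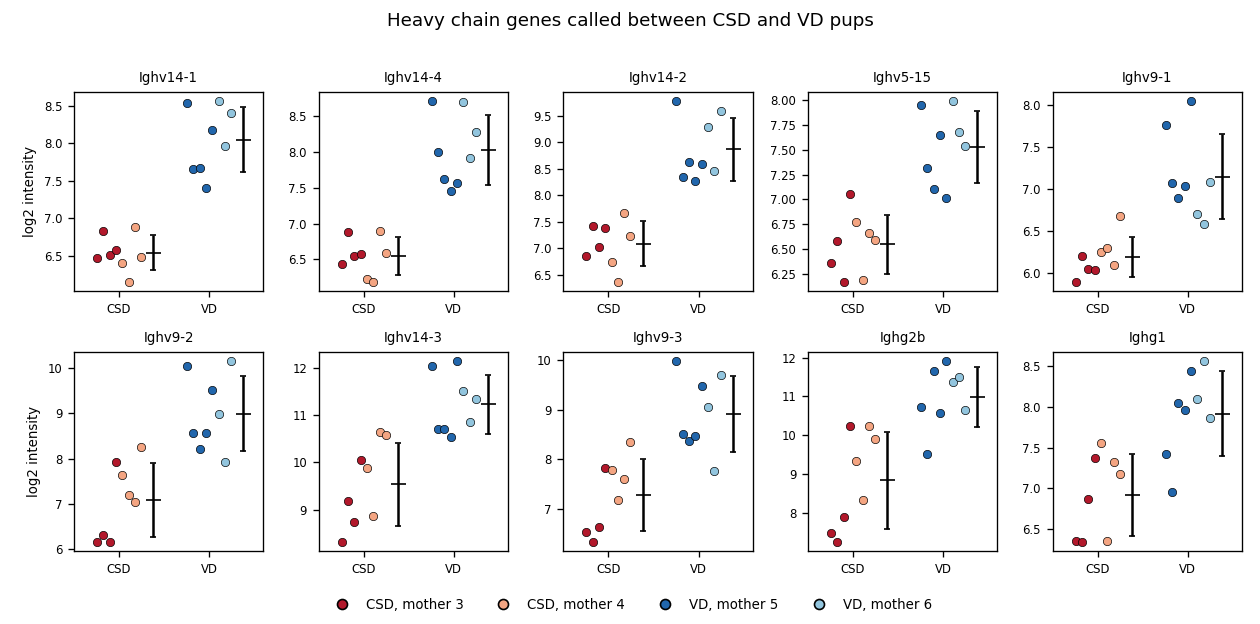
Log2 intensity (y axis, a scale of its own per panel) of the 10 heavy chain genes called, 1 point per pup coloured by mother, with the mean ± SD of each group of 8 to the right of its points. Groups do not overlap for Ighv14-1, Ighv14-2 and Ighv14-4, and in Ighg2b the CSD pups spread from 7.26 to 10.25.

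The 8 V segments called lie near each other. In the order of the locus, counted from the constant regions, they fell within a stretch of 20 V segments from Ighv5-15 to Ighv14-4 (chr12:115064989-115414781, mm9), and 0 of the 78 V segments outside the stretch were called. The stretch was defined by the calls, so that 0 calls outside it follow from its definition, and its extent was not tested. Its 12 other segments lay between the first and the last of those called. They had a median difference of -0.42, and 3 of them had a positive one. The 67 segments beyond the stretch had a median of -0.90 and the 11 between it and the constant regions a median of -0.98. The median over all 20 segments of the stretch was -0.98.

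**Figure D3:**
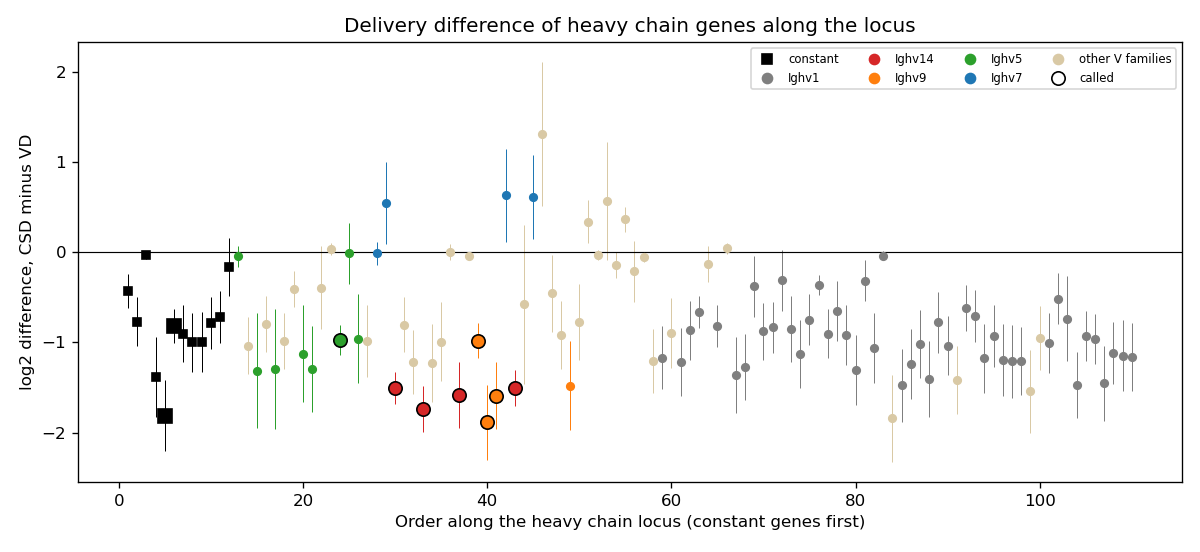
Log2 difference between CSD and VD pups (y axis, points with SE from the limma fit) of the 110 heavy chain genes in the order of the locus (x axis), coloured by V family. Large outlined symbols are the 10 genes called, and most points lie below 0, apart from 3 Ighv7 segments and a few others.

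The largest family, Ighv1, takes up the end of the locus away from the constant regions. All 45 of its entries had a negative difference (48.3% of all genes), from -1.47 to -0.04 with a median of -0.96. Of these, 38 were lower at an unadjusted p under 0.05 (7.09% of all genes), but 0 were called (1.25%). Ighv1-77 had the smallest p, with values of 8.06 to 10.13 in CSD pups and 9.92 to 11.80 in VD pups and a difference of -1.47 ± 0.36 (limma adjusted p = 0.0614). Ighv1-54, named after its values were seen, was the fourth gene whose groups did not overlap. It was measured at 6.11 to 6.95 in CSD pups and 6.99 to 10.50 in VD pups, a group in which pup 11 stood highest and the next was at 8.30, and its difference of -1.41 ± 0.42 was not called (limma adjusted p = 0.118). The 5 Ighv8 segments were also all below 0, with a median of -1.42. Ighv8-5 had a difference of -1.84 ± 0.49 (limma adjusted p = 0.0774).

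Smaller families also lay mostly below 0, without a call. The member with the smallest p had a difference of -1.03 ± 0.31 in Ighv2 (Ighv2-2), -1.22 ± 0.36 in Ighv3 (Ighv3-1), -1.23 ± 0.43 in Ighv4 (Ighv4-2) and -0.90 ± 0.39 in Ighv10 (Ighv10-1). The adjusted p-values of these 4 in limma ran from 0.108 to 0.299. Ighv3 also held the heavy chain gene with the largest positive difference, Ighv3-4, while its other 6 segments were below 0. Ighv3-4 was measured at 6.02 to 11.85 in CSD pups (median 8.99) and at 6.09 to 10.99 in VD pups (median 7.55). The groups overlapped over most of this range, with CSD pup 9 and VD pup 4 highest, and the difference was 1.31 ± 0.79 (limma adjusted p = 0.486).

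In the Ighv7 family most differences were above 0 as well, and the difference between families was not tested. Of its 4 segments, 3 had a positive difference of 0.54 to 0.63, and the fourth, Ighv7-1, one of -0.01. Ighv7-4, with the smallest p, was measured at 5.98 to 9.45 in CSD pups (median 7.45) and at 5.95 to 8.07 in VD pups (median 7.29). The medians were close, 3 CSD pups (6, 7 and 8) lay above every VD pup, and the difference was 0.61 ± 0.47 (limma adjusted p = 0.603). In Ighv6, 2 of 5 segments were above 0. Ighv6-5 was the gene with an unadjusted p under 0.05 in the higher direction (0.36 ± 0.14, limma adjusted p = 0.228), with 4 CSD arrays and 1 VD array well above background. The single segments of Ighv12, Ighv15 and Ighv16 (Ighv12-3, Ighv15-2 and Ighv16-1) were well above background on 0 of 16 arrays. Ighv11-2 was so on 1 array of each group (difference 0.01 ± 0.09), and Ighv13-2 on 2 CSD arrays and 0 VD arrays. With VD pups set to at least the lowest signal well above background on their arrays, the CSD mean of Ighv13-2 was 1.08-fold that of VD pups. That mean was carried by pups 7 and 9 (7.23 and 7.63), the only CSD pups well above background, so that the ratio is no lower bound. The gene did not pass the test (limma adjusted p = 0.565). 1700018A04Rik, outside the locus, had a difference of 0.00 ± 0.05.

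Among constant regions, 2 γ isotypes were called lower in CSD pups. Ighg2b, which encodes the IgG2b heavy chain, was measured at 7.26 to 10.25 in CSD pups (median 8.84) and at 9.53 to 11.90 in VD pups (median 11.05). The lowest pups were 5, 3 and 8 of mother 3, and 3 CSD pups (6, 7 and 9) reached into the range of VD pups. The difference was -1.81 ± 0.40 (3.51-fold lower, limma adjusted p = 0.0392). Ighg1 was dimmer, at 6.34 to 7.55 in CSD pups (5 of 8 arrays well above background) and at 6.96 to 8.56 in VD pups, with a difference of -0.82 ± 0.19 (1.76-fold lower, limma adjusted p = 0.0442). These calls held in 17 alternatives for Ighg2b and 13 for Ighg1, of 38, and neither gene changed direction. Their differences ran from -2.43 (without mother 4) to -1.24 and from -1.43 (scanner-corrected intensity) to -0.64.

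Ighg2c and Ighg3 were not called. Ighg2c was read by 3 probes, which gave differences in group means of -0.79, -2.01 and -2.26, or -1.69 on average. With sex and mother in the model the difference was -1.39 ± 0.44 (limma adjusted p = 0.140). Its values were 7.04 to 9.84 in CSD pups and 8.83 to 12.16 in VD pups. The 2 entries of Ighg3 had differences of -0.90 ± 0.32 and -1.001 ± 0.33 (limma adjusted p = 0.178 and 0.152).

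Igha, the constant region of IgA, had a bright entry, ENSMUST00000178282, with values of 16.06 to 18.36 in CSD pups (median 17.36) and 17.77 to 18.66 in VD pups (median 18.07). CSD pups 3, 2 and 5 were the lowest, and CSD pups 7 and 9 (17.82 and 18.36) reached into the range of VD pups. The difference of -0.77 ± 0.27 was not called (1.71-fold, limma adjusted p = 0.179), nor was that of the dimmer entry ENSMUST00000194738 (-0.43 ± 0.19, adjusted p = 0.300). In none of the 38 alternatives was either called, and both stayed below 0 in all.

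The isotypes of naive B cells had wide spreads as well. The 2 entries of Ighd had differences of -0.99 ± 0.33 and -0.79 ± 0.29 (limma adjusted p = 0.157 and 0.200). Ighm ENSMUST00000177715 was measured at 10.38 to 12.40 in CSD pups and at 11.39 to 12.60 in VD pups, with a difference of -0.72 ± 0.28 (limma adjusted p = 0.241). The other Ighm entry, ENSMUST00000103426, had a difference of -0.16 ± 0.32, and its 2 probes gave -0.51 and -0.08 in group means. Its direction turned in 5 alternatives, among them the brightest probe alone. Ighe was well above background on no array.

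**Figure D4:**
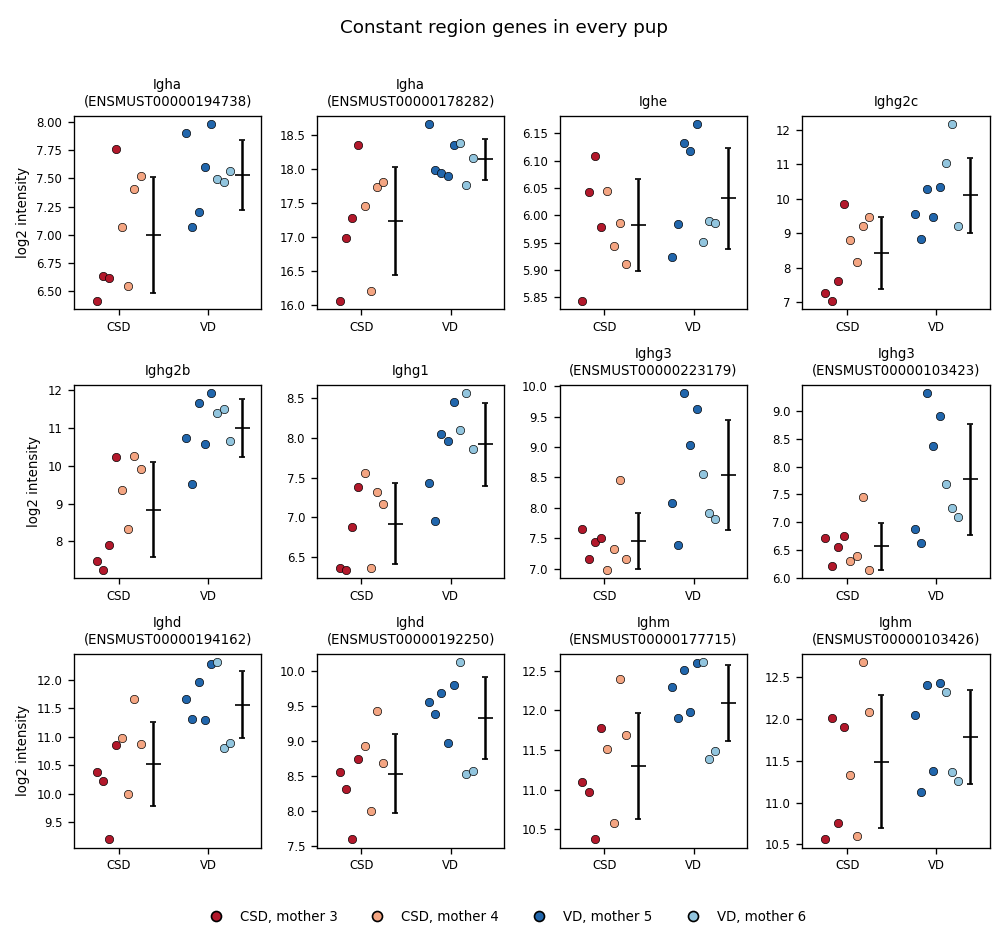
Log2 intensity (y axis, a scale of its own per panel) of the 12 constant region entries, 1 point per pup coloured by mother, with the mean ± SD of each group of 8. Ighg2b and Ighg1 were called, and in the bright Igha entry CSD pups 3 and 2 lie lowest at 16.06 and 16.20.

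The spread over pups was summarised by medians over groups of genes. The median over the 110 genes of the locus, as the difference from the mean of VD pups, ran from -1.59 to -0.32 in CSD pups (median -0.95) and from -0.41 to 0.63 in VD pups. For the 45 Ighv1 genes the CSD pups spread from -2.01 to -0.21 and the ranges of the groups overlapped. For the 4 Ighv14 genes they ran from -2.13 to -1.15, and in VD pups from -0.62 to 0.75, which restates that 3 of these 4 genes were without overlap, with Ighv14-1 and Ighv14-4 near background in some CSD pups. CSD pup 9 is an example: its Igha value of 18.36 was above the median of VD pups, and its Ighv14-1 value of 6.57 was below every one of them. Of the 111 genes, 69 to 99 were well above background in single CSD pups and 93 to 101 in single VD pups.

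**Figure D5:**
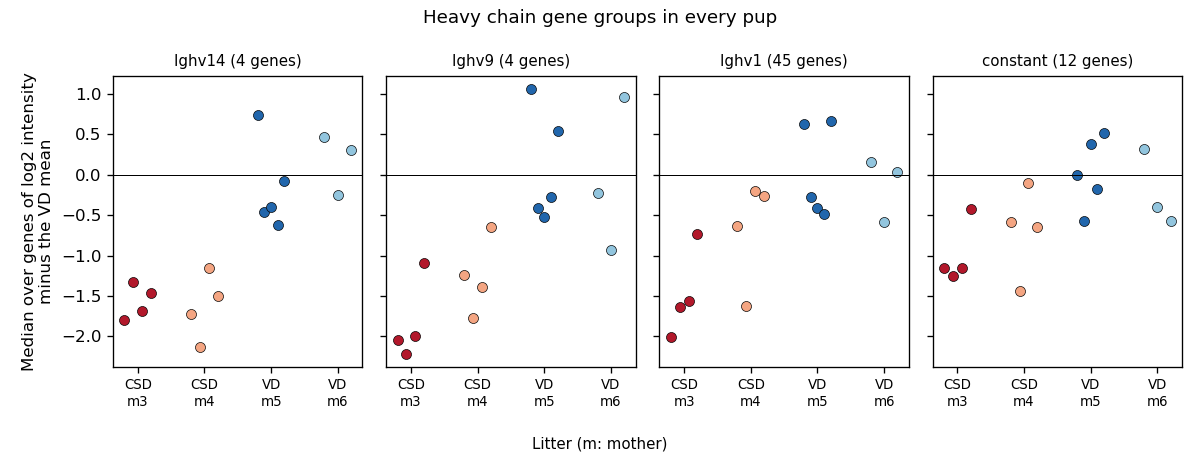
Median over the genes of a group of log2 intensity minus the mean of VD pups (y axis), 1 point per pup, by litter (x axis) and for Ighv14, Ighv9, Ighv1 and the constant regions. In Ighv14 all 8 CSD pups lie at or below -1.15, and in Ighv1 they spread up to -0.21.

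Litters of the same delivery mode were compared to see how far heavy chain genes vary without a difference in delivery. Between the litters of mothers 3 and 4 (CSD), 0 of the 111 genes were called (0.0872% of all genes) and 20 had an unadjusted p under 0.05 (7.69% of all genes). The litter of mother 3 was below that of mother 4 in 86 of the 110 genes of the locus, against 48.8% of all genes. Between the litters of mothers 5 and 6 (VD), 0 were called (0.874% of all genes), and 11 had an unadjusted p under 0.05 (11.5%). The litter of mother 5 was below that of mother 6 in 26 of the 110, against 48% of all genes. Ighv3-3, picked here for its spread, had litter means of 8.99 and 6.52 in CSD pups and 7.35 and 10.29 in VD pups. Its litter differences, adjusted for sex in the model, of 2.47 and -2.96 exceeded its difference between delivery modes (-0.58 ± 0.88) and were not called (limma adjusted p = 0.386 and 0.134).

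The difference between delivery modes was also compared between females and males. No heavy chain gene passed the test of the interaction in limma (0.00272% of all genes did), and 23 had an unadjusted p under 0.05, against 4.72% of all genes. In the 10 males alone the median over the 111 genes was -0.53 and 0 were called, as were 0 of all genes. The VD females all came from mother 5.

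Genes of the cells that make antibody were measured on the same arrays. Of 20 plasma cell genes, 15 were below 0 (48.3% of all genes) and 0 were called (1.25%), with a median of -0.18. At an unadjusted p under 0.05, 11 were lower (7.09% of all genes) and 1, Creld2, a gene of the endoplasmic reticulum, was higher (7.37%). Jchain, the brightest, had a difference of -0.95 ± 0.37 (limma adjusted p = 0.239), and Itgb7, a gut homing integrin subunit, and Ccr10, a homing receptor of IgA plasma cells, had the smallest p (-0.37 ± 0.09 and -0.75 ± 0.20, adjusted p = 0.0509 and 0.0744). Mzb1, a chaperone of antibody secreting cells, and Tnfrsf17, the receptor BCMA of plasma cells, had differences of -0.87 ± 0.29 and -0.57 ± 0.21 (adjusted p = 0.162 and 0.189). Sdc1, Xbp1 and Prdm1, which epithelium also expresses, had differences of 0.00, -0.01 and 0.02. The summed linear intensity of the plasma cell genes was 45722 to 89598 in CSD pups (median 59911) and 65869 to 118225 in VD pups (median 77493). Without Jchain the medians were 43694 and 45052, a sum in which Txndc5 and Creld2, with differences of -0.03 ± 0.04 and 0.21 ± 0.06, were the brightest, so that it says little of dimmer genes such as Mzb1.

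Of 20 B cell genes, 19 were below 0 (48.3% of all genes), with a median of -0.46, and 14 were lower at an unadjusted p under 0.05 (7.09%), but 0 were called (1.25%). Fcer2a, the low affinity IgE receptor of B cells, and Cd37, a tetraspanin, had the smallest p (-0.57 ± 0.15 and -0.61 ± 0.17, limma adjusted p = 0.0750 and 0.0910). Blnk, an adaptor of the B cell receptor, was the brightest of the list, whose summed linear intensity was 32355 to 45268 in CSD pups (median 37378) and 38723 to 45193 in VD pups (median 40394). Blnk, with a difference of 0.02 ± 0.07, made up 63.0% to 87.4% of that sum. The other 19 genes summed to 4633 to 13701 in CSD pups (median 7442) and 7752 to 16331 in VD pups (median 11610), and 4 CSD pups lay below every VD pup. Ms4a1, Cd79a, Cd79b, Pax5 and Cd22 were well above background on all 16 arrays and had differences of -0.60 to -0.18. The part of B lineage cell numbers in the differences of heavy chain genes was not tested.

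Other lists of the pathway were read against the 1.25% of all genes called. Of 15 class switch and germinal centre genes, 1 was called, Bcl6, a repressor needed for germinal centres, which was higher in CSD pups (0.41 ± 0.09, limma adjusted p = 0.0409). Of 18 genes of signals that induce IgA, 1 was called, Il21r, the interleukin 21 receptor, which was lower (-0.41 ± 0.09, adjusted p = 0.0452). All 11 genes of lymphoid follicle stroma and M cells were below 0 (48.3% of all genes). Among them 1 was called, Ccr6, a chemokine receptor of B cells, which was lower (-0.80 ± 0.18, limma adjusted p = 0.0465). The 13 genes of V(D)J recombination and pre-B cells had a median of 0.00 and 0 calls, with Vpreb2 and Dclre1c closest (0.40 and 0.11, adjusted p = 0.0877 and 0.255). Of 12 antibody transport and Fc receptor genes 0 were called. Fcmr, the IgM receptor, had a difference of -0.99 ± 0.34 (adjusted p = 0.167) and Pigr one of 0.02 ± 0.11, and Fcer2a, given above with the B cell genes, had the smallest p of this list too. The 13 T cell genes were all below 0 with 0 calls, and 7 were lower at an unadjusted p under 0.05 (7.09% of all genes), among them Cd2 (-0.77 ± 0.26, adjusted p = 0.162) and Icos (-0.22 ± 0.08, adjusted p = 0.205). Their summed linear intensity was 2578 to 4909 in CSD pups (median 3257) and 3554 to 10381 in VD pups (median 4758), and without Cd2, the brightest, 5 CSD pups lay below every VD pup. The part of T cell numbers was not tested. At an unadjusted p under 0.05, 6 of the follicle and M cell genes, 6 of the IgA signal genes, 3 of the antibody transport genes and 2 of the class switch genes were lower, and 2 of the V(D)J genes and 1 class switch gene were higher (7.37% of all genes). Immunoglobulin light chain genes, which pair with the heavy chain, were called lower in 11 of 103 entries, against 0.548% of all genes, and had a median of -0.91, with 67 lower at an unadjusted p under 0.05. By their descriptions, 7 of the 11 were among the 8 entries of kappa variable family 3 (-2.06 to -1.31), and the eighth had a difference of -0.40. The other 4 calls were 2 of 9 entries of kappa family 6, 1 of 4 of family 9 and the 1 entry of family 19 (-1.80 to -1.22). These families were singled out after their values were seen, and differences between families were not tested.

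Relations across the 16 pups were computed for 4 pairs of single genes, with permutation tests of 100000 resamples that treat littermates as independent. Igha and Ighm have 2 entries each, which gave 10 relations, over which p-values were adjusted. The entries with the higher mean, Igha ENSMUST00000178282 and Ighm ENSMUST00000177715, are given first. Igha and Jchain had r = 0.98 and rho = 0.95 (permutation p = 1e-05 each, the smallest the resamples can give, adjusted p = 3.33e-05 and 5e-05), with r of 0.98 within CSD pups, 0.93 within VD pups and 0.96 without the 2 pups farthest from the median of Igha. With the other Igha entry, r was 0.90 and rho 0.81 (permutation adjusted p = 3.33e-05 and 0.0011), and r was 0.94 within CSD pups, 0.56 within VD pups (permutation p = 0.15) and 0.84 without the 2 farthest.

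Ighm and Cd79a, a subunit of the B cell receptor, had r = 0.91 and rho = 0.93 (permutation p = 1e-05 each, adjusted p = 3.33e-05 and 5e-05), with r of 0.87 and 0.97 within CSD and VD pups and 0.93 without the 2 farthest. With the other Ighm entry, ENSMUST00000103426, r was 0.64 and rho 0.64 (permutation adjusted p = 0.0114 and 0.0163), with r of 0.58 within CSD pups (permutation p = 0.135), 0.89 within VD pups and 0.55 without the 2 farthest. Igha and Ighm had r = 0.75 and rho = 0.74 (permutation adjusted p = 0.00187 and 0.00455), and within CSD and VD pups r was 0.64 and 0.56 (permutation p = 0.0852 and 0.154), so that the relation did not pass a test within either. It was 0.72 without the 2 farthest pups. With Ighm ENSMUST00000103426 in its place, r was 0.65 and rho 0.50 (permutation adjusted p = 0.0105 and 0.0641), and r was 0.73 and 0.54 within CSD and VD pups (permutation p = 0.0419 and 0.164). Without the 2 farthest pups, CSD pups 2 and 3, r was 0.33 (permutation p = 0.243), so that this relation was weaker and did not pass a test without them. Leaving out the pups farthest in Igha also narrows its range. The other Igha entry gave r of 0.75 and rho of 0.63 with Ighm ENSMUST00000177715 (permutation adjusted p = 0.00192 and 0.0172), with r of 0.81 and 0.24 within CSD and VD pups and 0.68 without the 2 farthest. It gave r of 0.64 and rho of 0.59 with Ighm ENSMUST00000103426 (permutation adjusted p = 0.0114 and 0.0269), with r of 0.74 and 0.37 within CSD and VD pups and 0.42 without the 2 farthest (permutation p = 0.136). Igha and Pigr had r = -0.20 and rho = -0.30 (permutation adjusted p = 0.457 and 0.254), with r of -0.14 and -0.20 within CSD and VD pups and -0.23 without the 2 farthest, and the other Igha entry gave r of -0.23 and rho of -0.36 (permutation adjusted p = 0.421 and 0.194), with r of -0.01 and -0.62 within CSD and VD pups (permutation p = 0.987 and 0.106), rho of -0.02 and -0.83 (permutation p = 0.978 and 0.0154, not adjusted) and r of -0.24 without the 2 farthest.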

How the data were processed

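For all 16 arrays the authors deposited scanner output (Feature Extraction 12.0.3.2), with a mean intensity, a local background intensity, a corrected intensity and marks per spot, and a log2 matrix that the authors made with limma 3.38 (background correction, quantile normalization, filter on dim probes, mean per gene). The matrix served as an alternative. From the scanner output, normexp correction (offset 50), log2 and quantile normalization of the 59305 non-control spots were applied, spots marked as outliers were left out, and probes above the 5% quantile of their array on at least 4 arrays were retained (56366 of 56605) and averaged by gene. Limma 3.58.1 in R 4.3.3 modelled delivery mode and sex (fixed) with the mother as random block (consensus correlation 0.0152). Intensities are on this log2 scale unless named linear, and differences are CSD minus VD. The model was tested on simulated data, in which the estimated litter correlation let more false calls through than the adjusted p states. Exact permutation tests enumerated 12870 assignments and ignore litter and sex. Positions of probes were taken from the scanner output, and the RefSeq table of GRCm38.p6 held all 106 symbols. Genes named are every constant region, every gene called, the smallest p of each V family without a call, and the calls or the 2 smallest p of each list. Ighv1-12, Ighv1-54, Ighv3-3, Ighv3-4, Ighv9-4, other members of Ighv5 and Ighv7, and the markers of plasma and B cells and Pigr were named besides, and relations with the other Igha and Ighm entries and list sums without the brightest gene were added, after values were seen. The members, lists and tests were chosen with earlier results of these data known. Only the number of arrays and litters sets the precision. Plots were drawn with matplotlib 3.10.9.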

Additional observations from a re-analysis of the deposited data

Results flagged for a closer look

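Within a group of 8 pups, a pup was singled out where its gap to the nearest other pup exceeded Dixon's 95% critical share of the range, which chance alone gives in about 1 in 20 groups. Among 86 gene and group pairs of heavy chain genes described, 9 were singled out. Both entries of Ighg3 had a high value in CSD pup 6, at 8.45 (ENSMUST00000223179, nearest pup 7.65) and 7.45 (ENSMUST00000103423, nearest 6.76). Ighv3-1 and Ighv9-4 were high in CSD pup 9, at 7.14 (nearest 6.69) and 7.71 (nearest 6.62). Ighv1-54 was high in VD pup 11, at 10.50 (nearest 8.30), and Ighv5-2 and Ighv3-4 in VD pup 4, at 6.76 (nearest 6.23) and 10.99 (nearest 8.23). Ighv16-1 was low in CSD pup 5, at 5.84 (nearest 5.97), and Ighv12-3 high in VD pup 7, at 6.29 (nearest 6.08), where neither gene was well above background. Over all 222 pairs of the 111 genes, 20 were singled out, 12 in CSD and 8 in VD pups, with the pup high in 19.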

How the results depend on the processing

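All calls of heavy chain genes between delivery modes were in the lower direction, and the number with a negative difference stayed between 88 and 102 under every alternative. The 10 calls became 5 with a normexp offset of 16 or 0, with the scanner-corrected intensity under either normalization, with the deposited matrix (which holds 104 of the 111 genes) and with trend and robust eBayes, where 0.278% to 0.866% of all genes were called, against 1.25%. They became 16 without sex in the model (2.70% of all genes), 19 at an adjusted p under 0.1 (3.07%), 3 on slide 1 (0.0300%), and 0 on slide 2, in males or with litter means. Leaving out 1 pup gave 4 to 11 calls, while the share of all genes called ran from 0.395% (without VD pup 4) to 1.68% (without VD pup 7), with 4 without VD pup 4, 5 without CSD pups 2, 3 or 5 or VD pup 6, and 6 without CSD pups 6, 7 or 8 or VD pups 5 or 11. Leaving out 1 litter gave 4 to 38, with 4 without mother 3 (0.578% of all genes), 5 without mother 5 (0.515%), 12 without mother 4 (0.376%), of which 6 were among the 10 and Ighv5-15 and the 3 Ighv9 genes were not called, and 38 without mother 6 (6.17%), among them both entries of Ighg3 and Ighd and Ighm ENSMUST00000177715. The median of -0.92 moved to -0.48 without mother 5 and ranged from -1.33 to -0.48 over all alternatives. The cause of these shifts was not tested.

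Of the 20 constant region or called genes, 18 kept their direction in all alternatives. Without 1 litter, Ighe ranged from -0.073 to 0.021, turning without mother 5, and Ighm ENSMUST00000103426 from -0.43 to 0.21. This Ighm entry turned to 0.10 with the brightest probe, 0.04 without CSD pup 8, 0.0012 without VD pup 4, 0.06 without mother 3 and 0.21 without mother 5. The litter and interaction counts stayed at 0 under all alternatives run, except for 1 gene, Ighv3-1, between mothers 5 and 6 at an adjusted p under 0.1. Of the other V family, light chain and list genes named, 18 of 1397 values turned direction.

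With the pup number as a replicate block in place of the mother, 11 genes were called (1.90% of all genes), including the same 10. Pups with the same number had correlated deviations of -0.05 to 0.21, so that the number was not taken as a pairing. Dim probes limit the reading most for the 6 locus genes that were well above background on 0 arrays. A further 49 locus genes were so on only 1 to 15 arrays, among them most of the 10 genes called. For these called genes, the arrays that fell short were all of CSD pups, so that the size of their differences is less certain. With 2 litters per delivery mode, the litter sets how firmly a call can be read.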
